A study of Homo sapiens with 2 samples.

Results

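Enzymes that detoxify foreign compounds, aldehydes and steroids were compared between A549 cells that received a control siRNA and A549 cells that received an siRNA against p62/SQSTM1. The members were all genes whose symbol begins with the prefix of the aldo-keto reductase (AKR), aldehyde or alcohol dehydrogenase (ALDH, ADH), cytochrome P450 (CYP), UDP-glycosyltransferase (UGT), glutathione transferase (GST), sulfotransferase (SULT), carbonyl reductase (CBR), hydroxysteroid dehydrogenase (HSD, HSDL), arylacetamide deacetylase (AADAC) or ABC transporter family, without CYP51A1 and HSD17B7. This gave 54 of the 14884 genes named for the array, of which 22 were measured, meaning that the higher of their log2 values was 5.35 or more. That limit is the median of both arrays over all named probe sets, and 53.1% of all genes but 40.7% of the members reached it.

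The measured members were 10 hydroxysteroid dehydrogenase family genes, 6 glutathione transferases, 3 carbonyl reductases, 2 arylacetamide deacetylase genes and the aldehyde dehydrogenase ALDH2. No ABC transporter was measured: the only ABC symbols among the members were the pseudogene ABCA15P and the antisense RNA ABCC5-AS1, both below the limit. Other ABC genes and the aldo-keto reductase, cytochrome P450 and sulfotransferase families were not analysed here, and the set is therefore called the reductases, dehydrogenases and glutathione transferases below. Among the 54 members, 43 were protein-coding, 6 were transcribed pseudogenes and 5 were long noncoding RNAs. Of the 22 measured members, 20 were protein-coding and 2, AADACP1 and HSD17B7P2, were pseudogenes.

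A549 is an established human lung adenocarcinoma line. The siCONTROL group was transfected with control siRNA and the siP62 group with siRNA directed at p62/SQSTM1, and total RNA was taken after 24 hours. Each group had 1 array, so no spread within a group was known, no test between groups was possible and all differences below are descriptions of 2 arrays. In bulk RNA, fewer cells of a kind and less RNA per cell cannot be told apart.

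Detoxification runs in steps. Reductases, dehydrogenases and esterases expose or change a reactive group, transferases then attach glutathione or a sugar, and pumps of the ABC family export the product. Many of these genes are targets of NRF2, a transcription factor held in check by KEAP1. The protein p62 binds KEAP1 and can divert it to autophagy, and A549 cells carry a KEAP1 mutation that leaves NRF2 active. The HSD genes are largely short-chain dehydrogenases that interconvert hydroxyl and keto groups on steroids, fatty acids and other substrates, and several of them act in mitochondria or peroxisomes rather than in drug metabolism.

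The upstream sequence is shown for HSDL2, the member that differed most, and for the measured members whose upstream region holds an antioxidant response element core, the motif through which NRF2 acts. Sequences are from RefSeq on GRCh38.p14, run 5′ to 3′ on the gene's strand and end at or before the base preceding the annotated start. Capitals mark the core, TGACNNNGC, on either strand. The AP-1 motif TGANTCA, also sought on both strands, was found in GSTP1 alone among the measured members and lies inside the capitals there.
HSDL2, chr9:112379858-112380107, plus strand: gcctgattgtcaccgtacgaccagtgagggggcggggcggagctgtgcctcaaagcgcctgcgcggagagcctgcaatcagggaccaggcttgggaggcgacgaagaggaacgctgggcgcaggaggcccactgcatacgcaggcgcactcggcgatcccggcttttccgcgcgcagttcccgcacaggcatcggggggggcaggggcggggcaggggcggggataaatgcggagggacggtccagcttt
GSTP1, chr11:67583726-67583774, plus strand: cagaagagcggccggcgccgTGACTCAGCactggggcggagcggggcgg
GSTA4, chr6:52995285-52995313, minus strand: tctcacccagccgggaccgcTGACCTGGC
GSTO1, chr10:104254646-104254759, plus strand: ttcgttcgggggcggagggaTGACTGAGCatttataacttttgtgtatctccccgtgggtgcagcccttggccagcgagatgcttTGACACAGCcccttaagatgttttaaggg
CBR1, chr21:36069845-36069893, plus strand: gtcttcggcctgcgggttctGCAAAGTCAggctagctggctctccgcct

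RefSeq gave an upstream sequence for 36 of the 54 members and for 15 of the 22 measured ones. Within 250 bases before the start, the antioxidant core was present in 6 of the 36, among them 4 of the 15. It was present in 11.0% of 27305 gene promoters of the same length. The AP-1 motif was present in 5 of the 36, among them 1 of the 15, and in 6.74% of all promoters. In GSTP1 the core begins 66 bases before the start and shares its first bases with the AP-1 match, in GSTA4 it ends at the base before the start, and GSTO1 holds 2 copies. HSDL2 held neither motif in its window. A match is a stretch of letters and not evidence of binding.

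The siRNA target was lower in the array labelled siP62. SQSTM1 read 8.64 on the log2 scale with siCONTROL and 7.30 with siP62, a difference of -1.34. Of the epithelial markers, all 4 analysed here (EPCAM, KRT8, KRT18 and KRT19) were measured in both arrays, whereas the endothelial markers PECAM1 and VWF lay below the limit. Of the leukocyte markers, CD68, a lysosomal protein not limited to leukocytes, and CD14 were measured, with differences of -0.06 and -0.04; their part in the results was not tested. Of the hepatocyte markers, ALB and TTR lay below the limit in both arrays and APOA1 read 5.66 with siCONTROL and 5.19 with siP62.

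Across the 22 measured members most differences were small. The median difference, siP62 minus siCONTROL on the log2 scale, was 0.075, against 0.04 over all 7896 measured genes. Of the members, 14 (63.6%) had a difference above 0 and 8 below 0, and 55.4% of all measured genes lay above 0. Counted at 1.5-fold, 0 members were higher, where 2.08% of all measured genes were, and 1 member, HSDL2, was lower, where 1.60% were. The counts over all genes depend on centring, with 164 higher and 126 lower as deposited and 127 and 154 after the median difference was subtracted. Without HSDL2 the differences of the other 21 members ran from -0.28 to 0.43, with a median of 0.09.

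**Figure D1:**
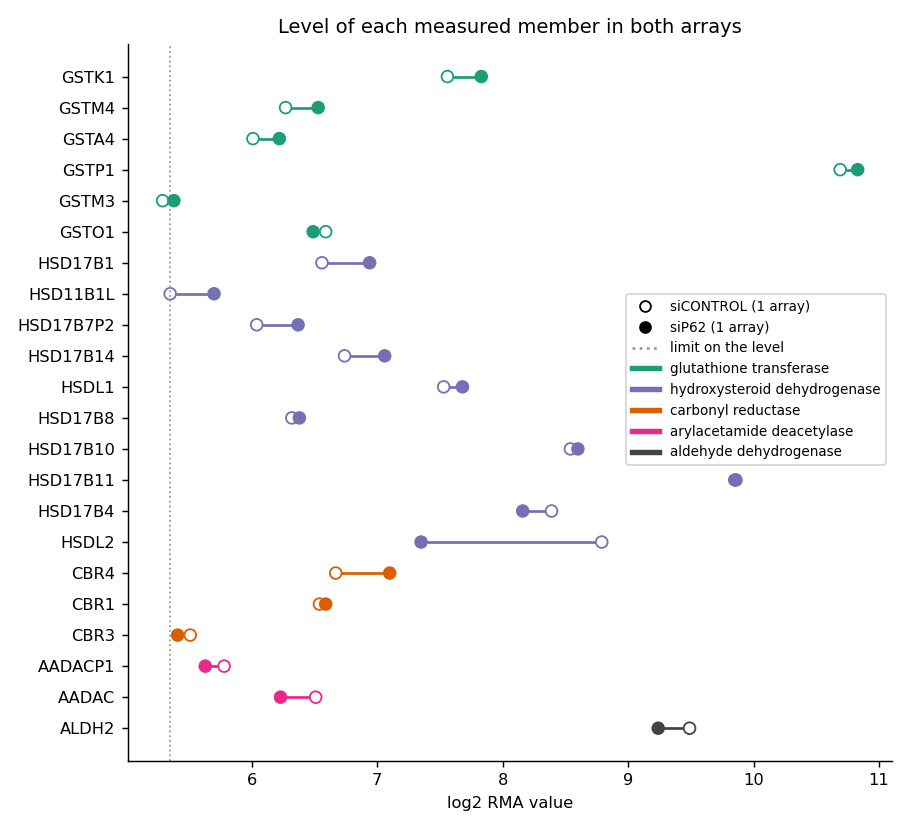
Log2 RMA values of the 22 measured members in the siCONTROL array (open circles) and the siP62 array (filled circles), 1 array each, coloured by family; the dotted line is the limit of 5.35. HSDL2 has the widest gap, from 8.79 to 7.35, and values should be compared between arrays within a gene, not between genes, since each gene is read by other probes.

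**Figure D2:**
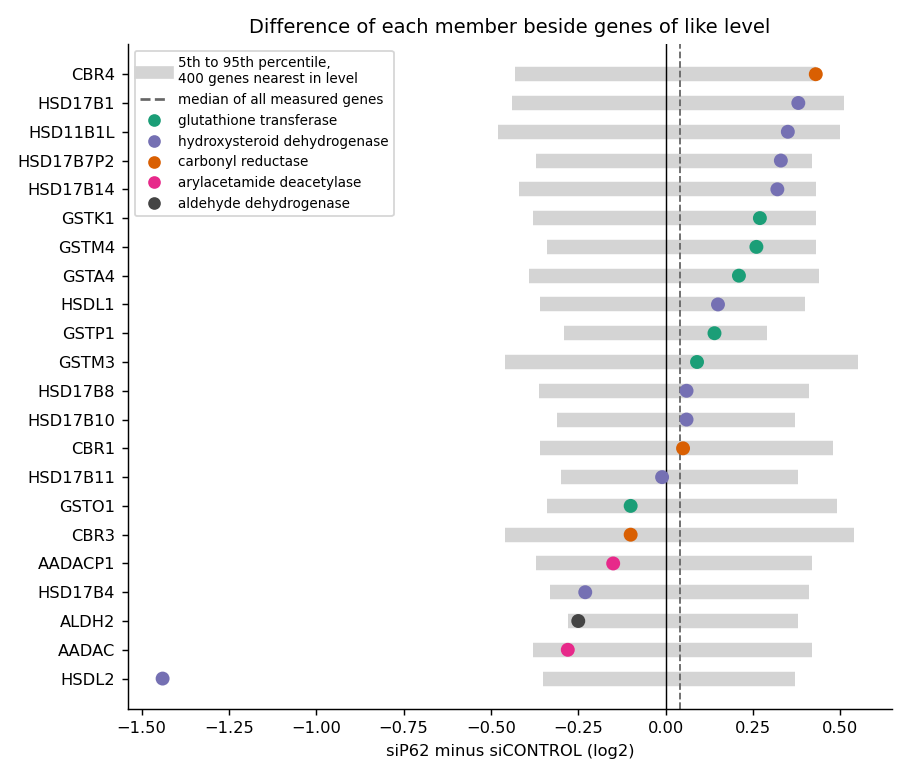
Difference of each measured member, siP62 minus siCONTROL (log2), as points coloured by family; grey bars span the 5th to 95th percentile of the differences of the 400 measured genes nearest in mean level, and the dashed line is the median of all measured genes, 0.04. HSDL2 at -1.44 is the only member outside its bar, and CBR4 at 0.43 sits on the edge of its own.

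A smaller fold size of 1.2, chosen after the data were seen, was counted as well. At least 1.2-fold higher were 6 of the 22, namely CBR4, HSD17B1, HSD11B1L, HSD17B7P2, HSD17B14 and GSTK1, and 16.0% of all measured genes were. At least 1.2-fold lower were 2 of the 22, HSDL2 and AADAC, beside 10.5% of all measured genes. After the median difference was subtracted, 5 members were higher, without GSTK1, beside 12.7% of all measured genes, and 4 were lower, with ALDH2 and HSD17B4 added, beside 13.5%. Of these members only HSDL2 lay outside the 5th to 95th percentile of the 400 genes nearest to it in level. With 1 array a group it is not known how far the values of the other members would vary between cultures.

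Among the hydroxysteroid dehydrogenase family, HSDL2 was far lower in the siP62 array and the steroid-converting enzymes HSD17B1 and HSD17B14 were modestly higher. The median difference of the 10 measured genes was 0.105, and 0.15 over the 9 others once HSDL2 was left out. Above 0 were 7 of the 10 and below 0 were 3, beside 55.4% of all measured genes above 0.

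HSDL2 is a peroxisomal short-chain dehydrogenase with a sterol carrier domain. It read 8.79 on the log2 scale with siCONTROL and 7.35 with siP62, a difference of -1.44 that left 36.9% of the control level. None of the 400 measured genes nearest in level had a lower difference, and the 5th to 95th percentile of their differences ran from -0.35 to 0.37. The difference of HSDL2 was thus close in size to that of SQSTM1, the target. HSDL2 was read by 1 probe set, so no second reading of it was at hand. The labels used here do not give the siRNA sequence, and whether it matches HSDL2 was not tested.

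Of the 3 genes on either side of HSDL2 in RefSeq gene order, 3 of 6 were read here, and none had a difference near that of HSDL2. PTBP3, an RNA-binding protein gene next to it, had 11.07 with siCONTROL and 11.04 with siP62, while SUSD1 had a difference of 0.73 and INIP, which encodes a subunit of a single-stranded DNA-binding complex, one of 0.48. HSDL1, a mitochondrial protein of similar name, had 7.53 with siCONTROL and 7.68 with siP62, a difference of 0.15. The neighbours HSDL2-AS1 and KIAA1958 were not analysed here.

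The 4 measured genes of the list of steroid enzymes were on the higher side or close to equal. HSD17B4, a family member not on that list, was lower, with a difference of -0.23. HSD17B1, which reduces estrone to estradiol, had 6.56 with siCONTROL and 6.94 with siP62, a 1.30-fold higher level. A further probe set of the same gene gave a near-equal difference, 0.36 beside 0.38. Its opposite strand holds HSD17B1-AS1 in RefSeq, and the labels do not say whether the probes tell the strands apart. HSD17B14, which oxidises estradiol and L-fucose, had 6.74 and 7.06, a difference of 0.32. HSD17B11, a lipid droplet enzyme that oxidises androgens, had 9.86 and 9.85 and was level between the arrays.

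HSD17B8, which is also a mitochondrial ketoacyl reductase subunit, differed by 0.06, from 6.32 to 6.38. It was read by 6 probe sets, and all of them held the same values to the last decimal in both arrays. They therefore count as 1 reading and give no measure of technical spread. The steroid enzyme list, of which 9 of 32 genes were named and 4 measured, had a median difference of 0.19.

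Of the mitochondrial and peroxisomal members of the family, HSD17B10 was close to level and HSD17B4 was slightly lower. HSD17B10, which degrades isoleucine and is a subunit of mitochondrial RNase P, had 8.54 with siCONTROL and 8.60 with siP62. HSD17B4, the bifunctional enzyme of peroxisomal fatty acid oxidation, had 8.39 and 8.16, a difference of -0.23. The 5th to 95th percentile of the 400 genes nearest to it in level ran from -0.33 to 0.41. Of the 3 measured peroxisomal members, HSDL2 and HSD17B4 were lower and GSTK1 was higher by 0.27, and the median was -0.23.

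HSD11B1L, a relative of the cortisol-producing reductase HSD11B1, had 5.35 in the siCONTROL array, at the limit itself, and 5.70 in the siP62 array. HSD17B7P2, a pseudogene of the cholesterol synthesis gene HSD17B7, had 6.04 and 6.37, a difference of 0.33. HSD17B7 itself was below the limit with 4.68 and 4.50. Probes were not checked for sharing between this gene and its pseudogene copy.

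Glutathione transferases, which attach glutathione to electrophiles, were slightly higher in the siP62 array in all but 1 of the measured cases. The median difference of the 6 genes was 0.175, with 5 above 0 and 1 below, beside 55.4% of all measured genes above 0. None reached 1.5-fold. GSTM3, 1 of the 5, passed the limit only through the siP62 array, where it was higher. The median was 0.21 where both arrays had to reach the limit and 0.09 without a filter. GSTP1, the pi-class enzyme prominent in lung tumours, had 10.69 with siCONTROL and 10.83 with siP62, a difference of 0.14. Of the 400 genes nearest to it in level, 86 had a higher difference.

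The mu-class gene GSTM4 had 6.27 with siCONTROL and 6.53 with siP62, a difference of 0.26, and GSTM3 had 5.29 and 5.38. GSTM3 was the one measured member that reached the limit in the siP62 array alone. GSTA4, which clears aldehydes of lipid peroxidation, had 6.01 and 6.22, a difference of 0.21. These genes belong to families of near-identical copies, for which shared probes were not checked.

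GSTK1, the kappa-class enzyme of mitochondria and peroxisomes, had 7.56 with siCONTROL and 7.83 with siP62 (1.21-fold), close to GSTM4 in its difference. GSTO1, an omega-class enzyme that reduces dehydroascorbate, was the exception, with 6.59 and 6.49, a difference of -0.10. Its upstream region is the one with 2 antioxidant cores shown above, and those of GSTA4 (0.21), GSTP1 (0.14) and CBR1 (0.05) hold 1 each. Genes with the core therefore had differences of both signs.

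Carbonyl reductases use NADPH to reduce ketones and quinones, and the 3 measured genes differed in both directions. CBR4, which pairs with HSD17B8 as a subunit of the mitochondrial ketoacyl reductase, had the highest difference of all measured members, with 6.67 with siCONTROL and 7.10 with siP62. This is 1.35-fold, and 19 of the 400 genes nearest in level had a higher difference. Its partner HSD17B8 differed by 0.06 only, so the genes of the complex differed by unequal amounts.

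CBR1, which reduces prostaglandins and anthracyclines, had 6.54 and 6.59, a difference of 0.05. CBR3, which follows it in RefSeq gene order after CBR3-AS1, had 5.51 and 5.41, a difference of -0.10. The antisense RNAs CBR1-AS1 and CBR3-AS1 lay below the limit in both arrays.

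AADAC, an esterase of the endoplasmic reticulum that hydrolyses drugs and stored lipid, and its pseudogene AADACP1 were both lower. AADAC had 6.51 with siCONTROL and 6.23 with siP62, a 1.21-fold lower level. AADACP1 had 5.78 and 5.63, a difference of -0.15. Both lay within the 5th to 95th percentile of the 400 genes nearest in level. Shared probes were not checked for this pair either. ALDH2, the mitochondrial enzyme that clears acetaldehyde, had 9.49 and 9.24, a difference of -0.25. Of the 400 genes nearest to ALDH2 in level, 28 had a lower difference.

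The list of NRF2-driven members asked whether members driven by this factor differed together. It holds genes of the families only, so NRF2-driven genes outside them were not counted. Of its 25 genes, 10 were named and 6 measured (GSTA4, GSTM3, GSTM4, GSTP1, CBR1 and CBR3). Their median difference was 0.115, beside 0.04 over all measured genes, with 5 above 0 and CBR3 alone below. Of all measured genes, 55.4% lay above 0. GSTM3, 1 of the 5, reached the limit only in the siP62 array, where it was higher. None of the 6 was 1.5-fold higher or lower, where 2.08% and 1.60% of all measured genes were. Each of the 6 lay within the 5th to 95th percentile of the 400 genes nearest to it in level.

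**Figure D3:**
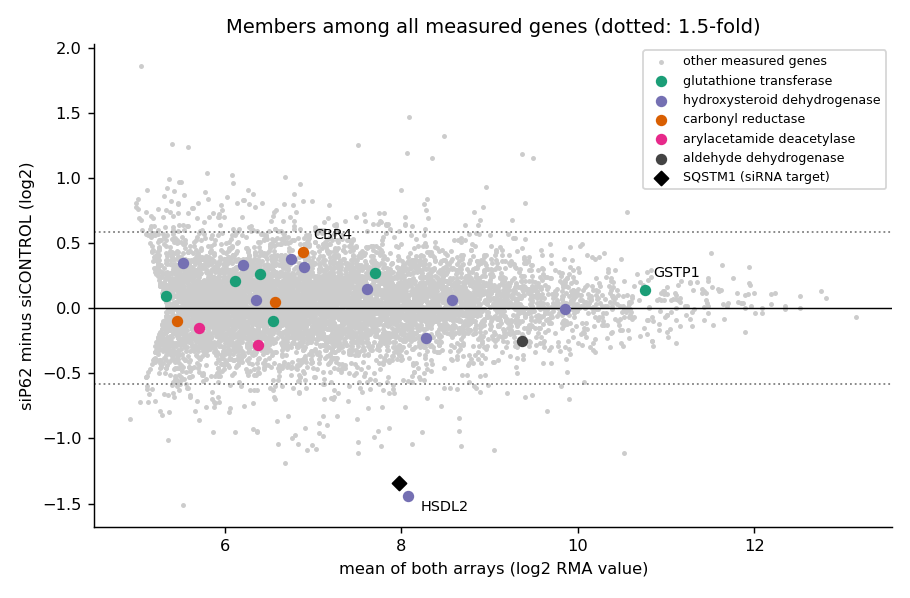
Difference between the arrays against the mean of both arrays (log2) for the 7896 measured genes (grey), the 22 members (coloured by family) and SQSTM1 (black diamond); dotted lines mark 1.5-fold. HSDL2 lies beside SQSTM1 below the cloud, and the other members lie within it.

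Genes that regulate or supply these enzymes were set beside them from separate lists. Of 23 regulators 8 were named and 6 measured, with a median difference of -0.005. KEAP1 had the lowest difference of them (-0.28, from 8.38 to 8.10), NFE2L2, which encodes NRF2, differed by -0.08, AHR, the receptor for aromatic hydrocarbons, by 0.04, and its target TIPARP by 0.10. None was 1.5-fold higher or lower.

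Genes that supply cofactors had a median difference of -0.03 over 11 measured genes. Of these, 3 were above 0 and 8 below, beside 55.4% of all measured genes above 0. CYB5A, the cytochrome that passes electrons to P450 enzymes, had 10.33 with siCONTROL and 10.01 with siP62. GSR, which regenerates glutathione, had 11.00 and 10.71, a difference of -0.29, so it lay on the opposite side from 5 of the 6 measured transferases that use glutathione. PAPSS1 and PAPSS2, which make the sulfate donor of sulfotransferases, each differed by 0.23.

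Detoxification enzymes outside the families had a median difference of 0.00 over 9 measured genes, with 4 above 0, 4 below and 1 equal. Of all measured genes, 55.4% lay above 0. MAOA, 1 of the 4 above 0, had 5.33 with siCONTROL and reached the limit only in the siP62 array, with 5.35. NNMT, which methylates nicotinamide, had the lowest difference, with 7.80 with siCONTROL and 7.23 with siP62 (-0.57). PON3, a lactonase, had the highest, 0.25. The microsomal transferases MGST1 and MGST2, which do a similar reaction to the soluble ones, differed by -0.11 and 0.00.

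Short-chain dehydrogenases outside the families had a median of -0.03 over 12 measured genes. Of these, 5 were above 0, 6 below and 1 equal, beside 55.4% of all measured genes above 0. DHRS11, which reduces steroid ketones, had the highest difference, with 6.19 with siCONTROL and 6.74 with siP62 (0.55). DHRS13 had the lowest, with 6.33 and 5.94 (-0.39). As deposited, no measured gene of these 4 lists was 1.5-fold higher or lower, but NNMT lay near that size and passed it (-0.61) once the median difference was subtracted.

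**Figure D4:**
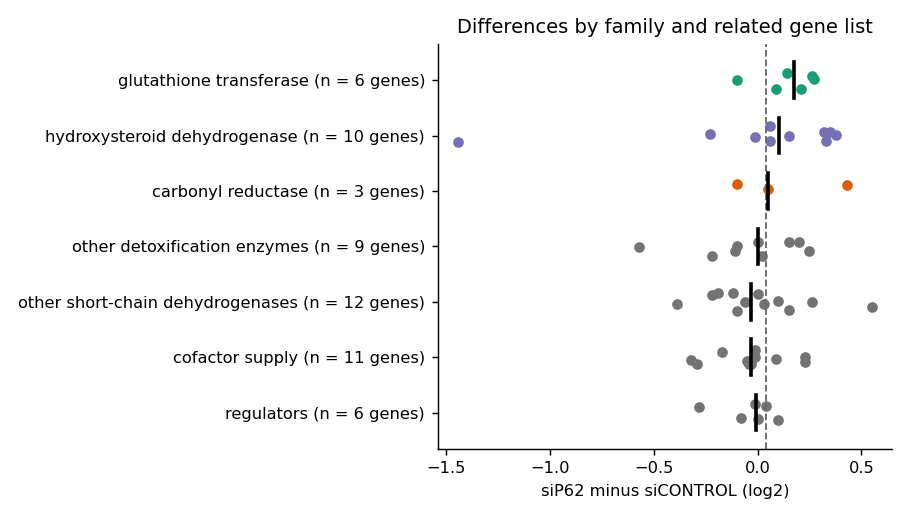
Differences of measured genes (log2, 1 point a gene, vertical position within a row without meaning) for the 3 families with at least 3 measured members (coloured) and 4 lists of related genes (grey); black bars are medians and the dashed line is the median of all measured genes, 0.04. The glutathione transferases have the highest median, 0.175, and HSDL2 at -1.44 is the isolated point of the dehydrogenases.

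The remaining 32 members were below the limit in both arrays, with the higher value between 2.54 (ADH6) and 5.29. Of these, 16 had a difference above 0, 13 below and 3 equal, beside 49.2% above 0 of all 14884 genes, measured or not. They were 14 glutathione transferase genes, 8 genes with an HSD symbol, of which HSD52 is a long noncoding RNA, 3 AADAC relatives, 2 antisense RNAs of carbonyl reductases, both ABC symbols, ALDH1L1-AS2, ADH6 and UGT8. GSTA2, the one with the lowest difference, had 3.91 and 3.12, and HSD17B13, with the highest, had 2.72 and 3.22; neither value was above the limit, so no fold is given.

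At the limit itself the members were continuous. GSTA1, the alpha-class enzyme, and the pseudogene GSTM2P1 each had 5.29 in the siP62 array and were not measured, with 5.16 and 5.21 in the siCONTROL array. GSTM3 with 5.38 and CBR3 with 5.51 were the lowest to count as measured.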

How the data were processed

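Total RNA of the siCONTROL and siP62 cells was hybridised to 2 whole-transcript arrays, from 100 ng of RNA per the labels' protocols. The authors deposited log2 values for 48226 probe sets on each array; the submitters' processing notes name RMA and, for software, Transcriptome Analysis Console 4.0.2.15. RMA makes array distributions alike, so a shift of all genes would not be seen. The sources used here give neither the genome build nor which arrays were normalized together, and array number limits the precision.

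Names came from the platform annotation, which gave 1 symbol to 16098 probe sets; all 54 members matched RefSeq (GRCh38.p14) with the same symbol. The probe set with the highest mean stood for a gene. The members and lists were chosen with earlier results of these data known. Named genes are SQSTM1, all measured members, the 2 members on either side of the limit and the extreme genes of each related list; others illustrate a family. Differences are siP62 minus siCONTROL; no test was possible. Alternatives were centring on the median, a loess curve (lowess fraction 0.4), quantile normalization, the mean over probe sets and other filters. The calling steps were run on simulated data with planted changes far larger than 1.5-fold, so that run cannot show how calls near 1.5-fold behave. Python 3.11.15, pandas 2.3.3 and statsmodels 0.14.6 were used.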

Additional observations from a re-analysis of the deposited data

How the results depend on the processing

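Under 3 other centrings, the mean over probe sets and a filter that both arrays had to reach, HSDL2 was the only member past 1.5-fold lower and 0 were past 1.5-fold higher; its difference ran from -1.49 to -1.44 and that of SQSTM1 from -1.39 to -1.34. None of the 22 measured members changed sign under the settings run, which says little about how stable the signs are. Filters cannot change a gene's difference, and the mean over probe sets cannot change the 20 members read by 1 probe set. Under the centrings CBR1 fell to 0.01 and HSD17B10 to 0.013. The filter mattered most. At the 70th percentile 11 members were measured, 7 of them above 0, beside 57.7% of all genes under that filter. There 4 were at least 1.2-fold higher (15.5% of all genes were) and 1 was lower (9.41%). The carbonyl reductase value was that of CBR4 alone, 0.43. Without a filter all 54 entered, 30 above 0 (49.2% of all genes were), 4 at least 1.5-fold lower (318 of 14884 genes were), 11 at least 1.2-fold higher (15.01%) and 8 lower (14.2%), and the medians were -0.10 for carbonyl reductases and 0.09 for glutathione transferases. Subtracting the median difference, subtracting the loess curve and quantile normalization each put 4 members at least 1.2-fold lower, beside 13.5%, 13.4% and 12.6% of all genes, and 5 higher, beside 12.7%, 13.2% and 13.79%. A median was said to move past 0.08, the median SD over the probe sets of 1 gene, which is no error between replicates. Identical probe sets were not dropped from it, and HSD17B8 entered with an SD of 0.0 over its 6 probe sets. No paired analysis was possible because each group had 1 array.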
